A study of Mus musculus with 8 samples.

Results

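Ntn1 encodes netrin-1, a secreted protein related to the laminins. Of the 33012 probes on each array 1 was matched to it, probe 325065, which carries the cDNA identifier BC019633.1 in the files. That identifier is listed as a synonym of Ntn1 in the RefSeq gene table, and the name of the probe rests on this match. Most probes could not be matched to a symbol, so other probes for Ntn1 may be among them. The gene was chosen by its log2 signal, because its mean differed between the same mutant and control pools, so its levels are given as measurements and no test is attached to them.

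Netrin-1 is best known as a guidance cue. It attracts growing axons through the receptors DCC and neogenin and repels them through receptors of the UNC5 family, and DCC and UNC5 receptors can promote cell death when no netrin is bound. It is also made outside the nervous system, and in the developing mouse kidney it is produced by stromal progenitors. Wt1 encodes a zinc finger transcription factor of the early kidney mesenchyme. Mouse embryos without it form no kidneys, because the mesenchyme dies and the ureteric bud does not grow into it.

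Mutant and control tissue were compared, each as 4 pools of kidney anlagen dissected at stage E10.25 (8 to 13 tail somites), which the design text describes as preceding cell death in Wt1 mutants. The mutant pools are labelled as Wt1 knockout. The control pools are called wild type in their titles and Wt1 heterozygote in their genotype entry, so their genotype is not settled and they are called controls. All animals came from a line with the Wt1 mutant allele of Kreidberg and co-workers on a mixed C57Bl6/DBA background. A pool held RNA of 16 kidneys of a single genotype, which was amplified, labelled with digoxigenin and hybridised singly to an Applied Biosystems Mouse Genome Survey microarray read in 1 colour. No label says if pools were made from different litters, and p-values then measure only the spread between these pools, which may be technical.

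The array medians of the deposited signal, an intensity on a linear scale, ran from 812.8 to 1316.8 in mutant pools and from 681.6 to 2118.2 in control pools, and 52.6% to 59.5% of probes were detected per array. Of the 8 arrays, control pools 1 and 2 were the farthest from the rest. Along the leading principal component of the tested probes, with 42.4% of the variance, they lay at 42.16 and 67.46, against -21.5 to -13.08 for the mutant pools and -16.64 and -19.56 for control pools 3 and 4. The probes of Wt1 and of the 26 entries listed as markers of metanephric mesenchyme, ureteric bud and nephric duct could not be named, since 0 of these entries matched an identifier. Neither the targeted gene nor the labelled tissue was therefore checked.

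The netrin-1 probe was bright in every pool. Its deposited signal was 4686.12, 6082.66, 4244.64 and 7763.05 in mutant pools 1 to 4, against 33487.42, 8908.04, 15395.86 and 8372.61 in control pools 1 to 4. The lowest control signal lay above the highest mutant signal, while control pool 1, the array with the highest median, stood far above the other 7. The signal-to-noise score was 17.87, 17.59, 25.6 and 16.61 in mutant pools, against 49.41, 46.01, 23.51 and 28.49 in control pools. This score overlapped between the genotypes, since mutant pool 3 was above control pool 3. The quality flag was 0 on all 8 arrays, and each score was above the detection limit of 3 used here, so Ntn1 was detected in 4 of 4 mutant and 4 of 4 control pools.

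Dividing each signal by the median of its array made the array medians equal. With this scaling the median tested probe still differed by -0.12 (log2 signal, mutants minus controls). Ntn1 then measured 5.77, 5.53, 4.63 and 5.9 array medians in mutant pools 1 to 4, against 15.8, 13.1, 10 and 7.26 in control pools. The mutant pools lay close together and the control pools were spread over more than the whole range of the mutants. The deposited array-normalized signal, whose scaling method is not stated, also kept the genotypes apart, with 6.41, 5.46, 4.93 and 6.43 in mutants and 16.55, 12.77, 11.16 and 8.21 in controls. The means were 5.81 ± 0.740 in mutants and 12.2 ± 3.48 in controls (SD, n = 4 each), a 2.10-fold lower mean in mutants.

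On the log2 scale, after quantile normalization over all probes, Ntn1 measured 12.76, 12.58, 12.37 and 12.78 in mutant pools 1 to 4, against 13.93, 13.70, 13.51 and 13.16 in control pools 1 to 4. Every mutant pool was below every control pool. The means were 12.62 ± 0.19 in mutants and 13.57 ± 0.33 in controls (SD, n = 4 each), and the difference of mutants minus controls was -0.95 (SE 0.18), a 1.94-fold lower signal in mutants. Fewer cells that make netrin-1 and less of its RNA per cell cannot be told apart in such pooled tissue. All mutant pools lay below all control pools for 7.62% of the 17594 tested probes, and a difference of -0.95 or below was found for 1.35% of them. As Ntn1 was chosen on this comparison, these shares are printed as background and nothing is read from them.

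**Figure D1:**
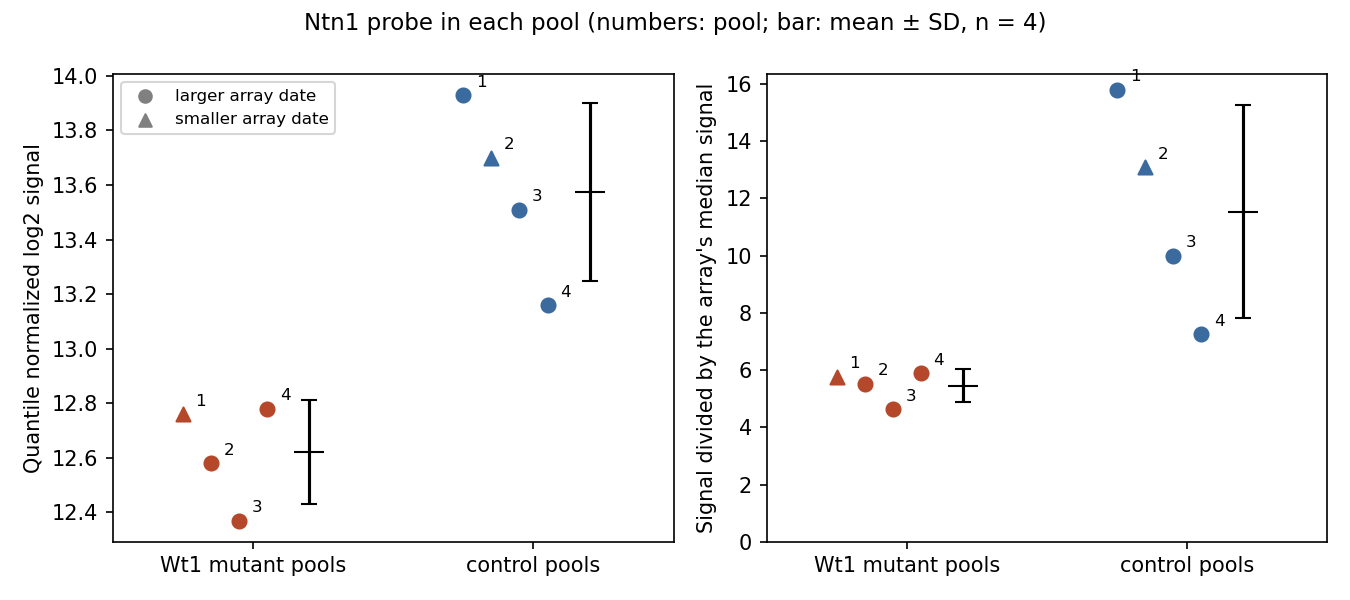
Ntn1 in the 4 Wt1 mutant pools (left in each panel) and the 4 control pools (right), as quantile normalized log2 signal in the first panel and as signal in units of the array median in the second. Points are pools with their number, triangles mark the 2 arrays of the smaller array date (a code in the array names taken as a date), and bars give the mean ± SD. The mutant pools lie between 12.37 and 12.78 and the control pools between 13.16 and 13.93 on the log2 scale.

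Ordered by normalized level, the pools ran from control pools 1, 2, 3 and 4 at the top to mutant pools 4, 1, 2 and 3 at the bottom. The step between the genotypes, from control pool 4 down to mutant pool 4, was 0.37 on the log2 scale. It was larger than the SD among the mutants and slightly above that among the controls. The steps within the controls were 0.23, 0.20 and 0.35, so the step between genotypes was close in size to that between control pools 3 and 4. Within the mutants the steps were 0.02, 0.17 and 0.22, and mutant pools 4 and 1 did not differ beyond their spread. Over the 16 pairs of a mutant and a control pool, the mutant was lower in 16, with a difference of -0.37 for the closest pair (1.30-fold lower) and -1.57 for the farthest pair (2.96-fold lower).

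Over 4 pools of each genotype, Ntn1 varied more among the controls than among the mutants, and so did the median tested probe. Its SD of 0.192 among mutants stands beside a median of 0.136 over all tested probes, and its SD of 0.329 among controls beside a median of 0.287. Without control pools 1 and 2 the median SD of the tested probes among the remaining controls was 0.104. That value rests on 2 pools, and an SD of 2 pools tends to come out smaller than an SD of 4. It therefore cannot be compared with the 0.136 of the mutants. The 2 controls that lay apart on that component also had the highest Ntn1 levels. With these 2 left out, control pools 3 and 4 averaged 13.33 and the difference was -0.71. With only control pools 1 and 2 kept, which averaged 13.82, the difference was -1.20. Every mutant pool was thus below the controls with either pair, and the size of the difference depended on which pair was used. The part of the shared deviation of control pools 1 and 2 in this difference was not tested.

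The array names carry 2 codes, which were taken here as array dates. The larger date held 3 mutant and 3 control pools, and Ntn1 differed by -0.95 within it. The smaller date held mutant pool 1 and control pool 2, which differed by -0.95 as well. The difference was thus of the same size within each date, though the smaller date has no replicate. The array names of mutant pools 1 and 4 also carry the same number. They may hold the same RNA, which no label settles, and the mutants would then count as 3 samples and not 4. Over the tested probes these pools correlated at 0.988, as did mutant pools 1 and 2. With mutant pools 1 and 4 averaged as 1 sample the difference was -1.0 (log2 signal).

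**Figure D2:**
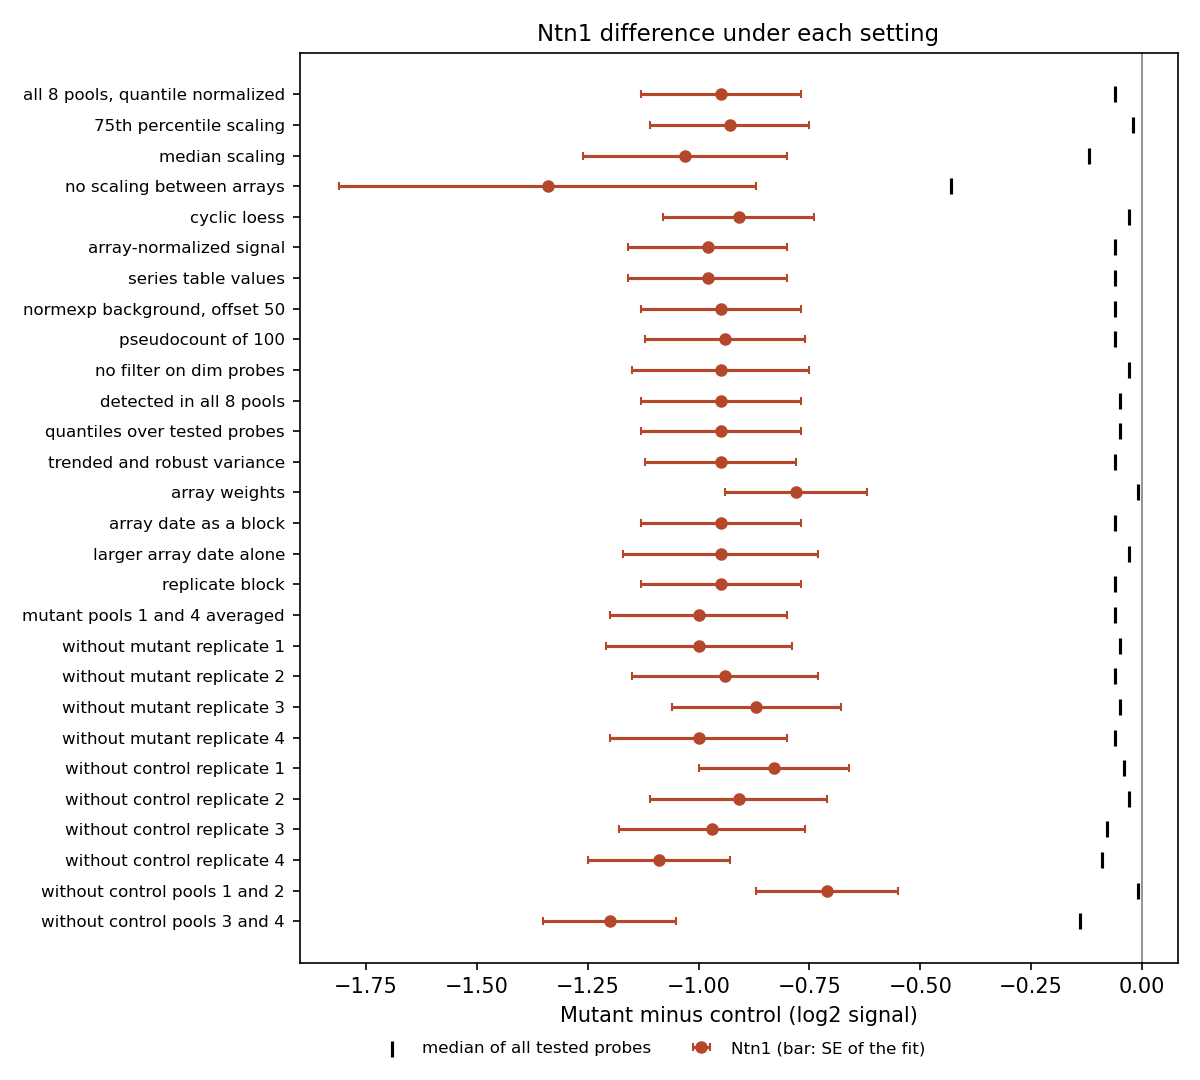
Difference in Ntn1 log2 signal, mutants minus controls, with all 8 pools quantile normalized (top) and under each of 27 other settings. Points are the difference with the SE of the fit and ticks are the median difference of all tested probes under the same setting. Every point lies between -1.34 and -0.71, and the lowest one, without scaling between arrays, goes with a median of -0.43 over all probes.

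Changes in scaling moved the Ntn1 difference together with that of the median probe. Without any scaling the difference was -1.34, and the median tested probe then lay at -0.43. Taken relative to the median probe, the difference was -0.91 without scaling, with median scaling and with 75th percentile scaling. These values are equal by construction, since both scalings shift all probes of an array by the same amount, and nothing is read from their equality. The difference relative to the median probe was -0.89 with quantile normalization and -0.88 with cyclic loess. The deposited array-normalized signal, quantile normalized, gave -0.98 before and -0.92 after subtraction of the median probe.

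Other members of the netrin pathway were hard to find on the array, because few identifiers could be named. Only 316 of the 33012 probes, for 310 genes, were matched to a symbol, and none of the other netrins and none of the receptors Dcc, Neo1, Unc5a to Unc5d or Dscam was among them. The same held for the slit, robo, semaphorin, plexin, neuropilin, ephrin and Eph families, which also guide axons. The genes that flank Ntn1 in the RefSeq table, Stx8 and Pik3r5, had 0 matched probes. These genes are not analysed here.

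In the lists of receptor effectors, matrix and adhesion families, other secreted signals and cell type markers, 13 genes besides Ntn1 were matched, by 14 probes. Of these probes, 8 (for 7 genes) passed the detection filter and 6 did not. Among all 17594 tested probes, 81 differed between genotypes by limma (adjusted p under 0.05), or 0.460%. None of the 8 list probes passed it, which at that share is not unusual, and 5 had an unadjusted p under 0.05 in limma's test, 1 lower and 4 higher in mutants, against 13.5% of all tested probes. Of these 4, a Ccl21b probe was detected in 4 mutant but only 2 control pools, so it entered the test only through the genotype in which it is high and lends these counts no support. The genotypes did not overlap for 4 of the 8, against 10.6% of all tested probes. The lists were chosen with earlier results of these data known, so nothing about the lists is read from these counts. The median difference was 0.509 over the 8 and -0.058 over all tested probes. That Ccl21b probe is 1 of the 2 middle values of the 8, so nothing is read from their median.

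The 1 measured effector was Mapk7, a MAP kinase also called ERK5. Its log2 signal was 15.11, 15.20, 15.14 and 15.06 in mutant pools, against 15.56, 15.71, 15.27 and 15.32 in control pools. The mutants lay below the controls, as for Ntn1, but by less. The difference was -0.34 (SE 0.12, limma's adjusted p = 0.325) and -0.17 without control pools 1 and 2. Of the adhesion families, Pcdha3, a clustered protocadherin of neuronal membranes, had every mutant pool above every control pool, the reverse of Ntn1. It measured 11.79, 12.03, 12.28 and 11.84 in mutants, against 10.71, 11.04, 11.45 and 11.33 in controls, and the difference was 0.86 (SE 0.19; adjusted p = 0.123 by limma). Its cluster mate of the beta group, Pcdhb1, was detected in 0 of 8 pools.

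Of the other secreted signals, Fgf11, a member of the FGF family that is kept inside the cell, averaged 11.60 ± 0.19 in mutants and 11.85 ± 0.48 in controls (SD, n = 4 each), and limma gave it an adjusted p of 0.583. The spread of its controls came from control pool 4, at 12.57, and without control pool 4 the difference of -0.26 shrank to -0.02, while without control pools 1 and 2 it was -0.49. Notum, an enzyme that inactivates Wnt proteins, averaged 11.31 ± 0.16 in mutants and 10.96 ± 0.27 in controls, and its adjusted p in limma's test was 0.379. Its genotypes overlapped, and the difference of 0.34 was 0.11 without control pools 1 and 2. The chemokine Ccl21a averaged 11.08 ± 0.14 in mutants and 10.31 ± 0.35 in controls (limma's adjusted p = 0.146), and the difference of 0.77 was 0.48 without control pools 1 and 2. Its value is uncertain, since the near-identical copy Ccl21b has probes that differ from each other. The brighter Ccl21b probe had a difference of -0.09 (limma's adjusted p = 0.754). The dimmer Ccl21b probe measured 11.77, 11.51, 11.95 and 11.46 in mutants, against 10.92, 10.32, 11.15 and 11.61 in controls. It was detected in 4 of 4 mutant but only 2 of 4 control pools, so its difference of 0.67 (limma's adjusted p = 0.332) rests partly on control values below the detection limit and cannot be read as a measured size. Without control pools 1 and 2 it was 0.30. Sfrp4, a secreted Wnt antagonist, the chemokine Ccl19 and the metabolic hormone Fgf21 were detected in at most 1 pool and were not tested.

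**Figure D3:**
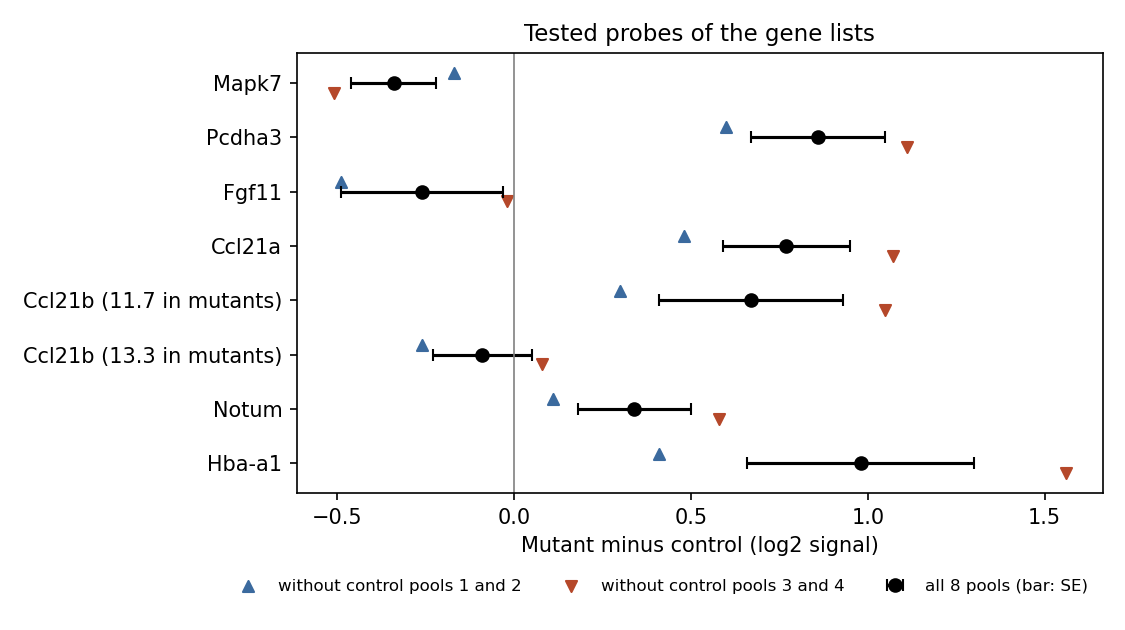
Difference in log2 signal, mutants minus controls, for the 8 tested probes of the gene lists. Black points with bars are the difference and SE over all 8 pools, upward triangles are without control pools 1 and 2 and downward triangles without control pools 3 and 4. Mapk7, Fgf11 and the Ccl21b probe at 13.3 have negative differences and the other 5 probes positive ones, of which the Ccl21b probe at 11.7 was detected in 2 of 4 control pools. All but Fgf11 and the Ccl21b probe at 13.3 lie farther from 0 without control pools 3 and 4.

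Of the 79 marker symbols in all lists, which include those of the labelled tissue, 3 were matched, and these mark other cells that the dissection could hold. Sox3 and Lhx2, transcription factors of the neural tube, were each detected in 0 mutant pools and 1 control pool and were not tested. No marker of the floor plate, a strong source of netrin-1 in the embryo, was matched. Hba-a1, an alpha globin of red cells and the 1 matched member of the 9 listed for that cell type, had a log2 signal of 19.84, 20.00, 20.10 and 19.77 in mutant pools, against 18.08, 18.66, 19.40 and 19.64 in control pools. The order of the 8 pools by Hba-a1 was exactly the reverse of their order by Ntn1 (Spearman rho -1 over 8 pools). The mean of Hba-a1 was 0.98 higher in mutants (SE 0.32, limma's adjusted p = 0.279), and 0.41 higher without control pools 1 and 2. The part of blood content in the Ntn1 difference was not tested.

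Likeness to Ntn1 was described by Pearson's r of the normalized log2 signals over the 8 pools, for the brightest tested probe of each of 172 other named genes. The points share the genotype difference and the deviation of control pools 1 and 2, so r describes a joint pattern over these 8 pools only. Its quartiles over the 172 genes were -0.454, 0.0488 and 0.514, and 3 genes were above 0.9. Over all other 17593 tested probes 378 were above 0.9, or 2.15%, so a likeness of that size was not rare. The genes named here were chosen for their likeness to a gene that differs between genotypes, and their own differences are therefore given without a test, apart from Pcdha3 and Hba-a1, which were tested above as list members.

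Psme3, an activator subunit of the proteasome in the nucleus, was the named gene most like Ntn1, with r = 0.959. It measured 16.59, 16.54, 16.62 and 16.72 in mutant pools 1 to 4, against 17.43, 17.21, 17.00 and 16.86 in control pools. Its control pools had the same order as for Ntn1, and its genotypes did not overlap. The difference was -0.50, and it was -0.31 without control pools 1 and 2. Pdxp, a phosphatase of pyridoxal phosphate and cofilin also called chronophin, had r = 0.949. It measured 14.59, 14.34, 14.46 and 14.49 in mutants, against 15.07, 14.94, 14.76 and 14.61 in controls. Control pool 4 and mutant pool 1 nearly met, at a step far below the spread among the controls.

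Vars2, the mitochondrial valyl-tRNA synthetase, had r = 0.921, with 12.16, 11.95, 11.85 and 12.28 in mutants, against 12.49, 12.56, 12.44 and 12.17 in controls. Mutant pool 4 was above control pool 4, so its genotypes overlapped. Gpr173, an orphan receptor, had r = 0.882 with 1 of 4 mutant and 3 of 4 control pools detected, so most of its mutant values are not well above background. It passed the detection filter only through the controls, in which it is high, so nothing is read from its place in this ranking. Its signal was 9.21, 8.02, 8.49 and 8.36 in mutants, against 10.05, 10.40, 10.11 and 8.78 in controls. Without control pools 1 and 2, r over the remaining 6 pools was 0.917 for Psme3, 0.866 for Pdxp, 0.877 for Vars2 and 0.788 for Gpr173.

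The named genes least like Ntn1 were Pcdha3, with r = -0.969, and Hba-a1, with r = -0.933, both given above. Without control pools 1 and 2 these values were -0.919 and -0.987. Among probes without a symbol, mCG5377.2 came closest, with r = 0.993 and the same order of all 8 pools. It measured 16.98, 16.89, 16.85 and 17.07 in mutants, against 17.87, 17.71, 17.50 and 17.30 in controls. The next was mCG17323.2, with r = 0.989 and a difference of -0.33. Neither identifier has a gene symbol in the sources used here.

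**Figure D4:**
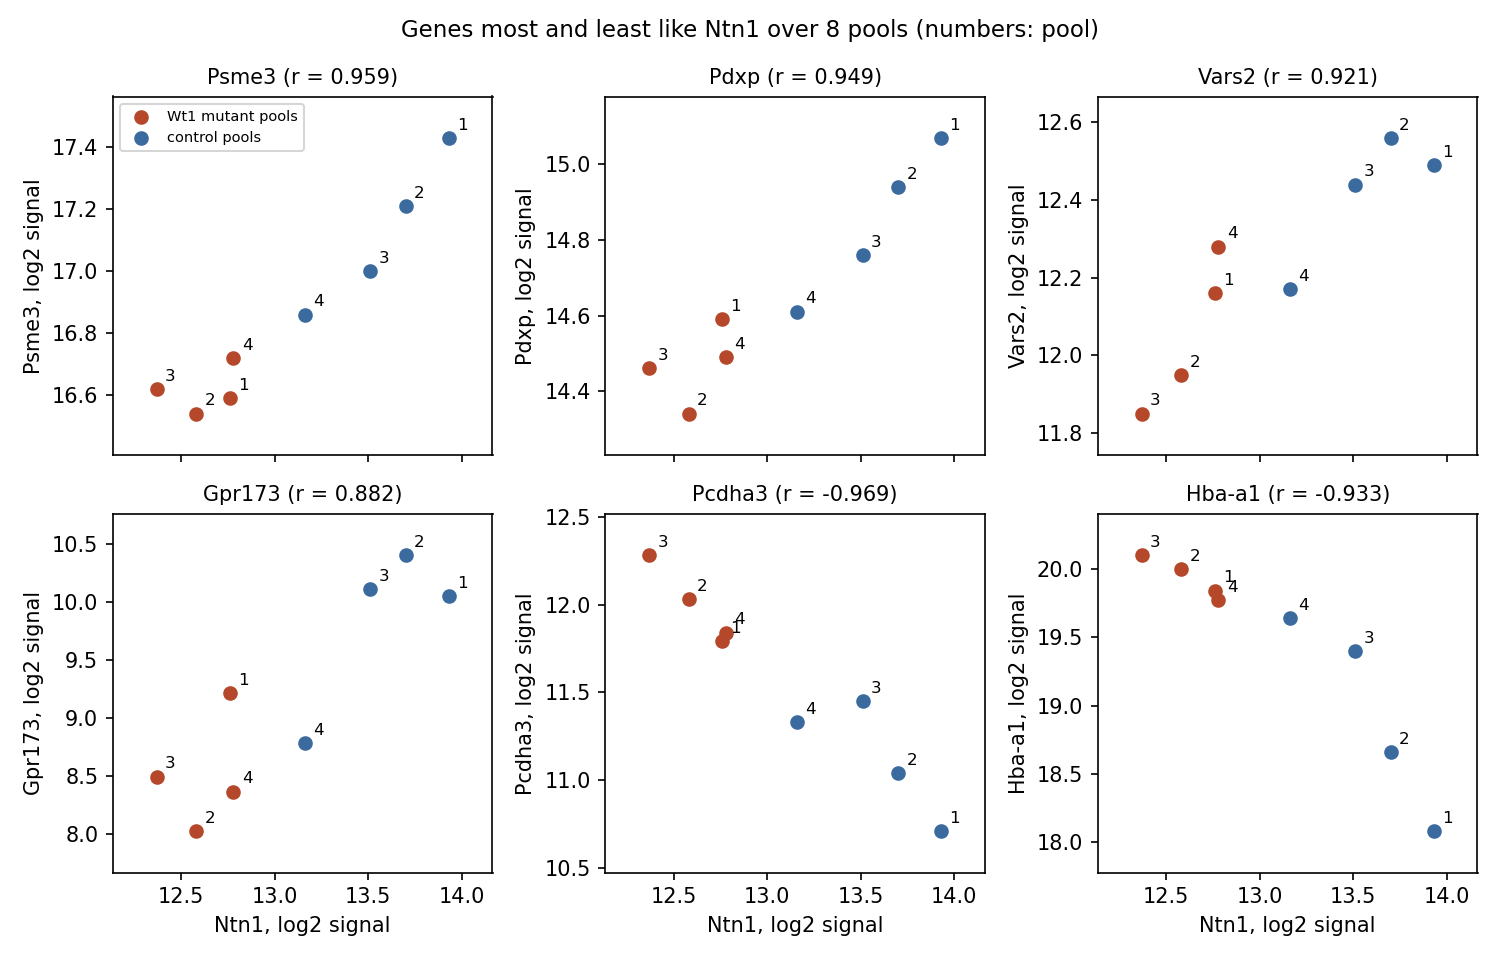
Log2 signal of 6 genes (vertical axes) against that of Ntn1 (horizontal axes) in the same pool, with the 4 Wt1 mutant pools and the 4 control pools in different colours and numbered. Psme3, Pdxp, Vars2 and Gpr173 are the named genes of highest r with Ntn1, from 0.959 to 0.882, and Pcdha3 and Hba-a1 those of lowest r, at -0.969 and -0.933. Gpr173 was detected in 1 of 4 mutant and 3 of 4 control pools and passed the filter only through the controls. In the Hba-a1 panel each pool with more Ntn1 signal has less Hba-a1 signal.

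A gene can follow Ntn1 from pool to pool within a genotype without differing between genotypes. By the mean of r among the 4 mutants and r among the 4 controls, the named genes nearest to Ntn1 were Stat5b, a transcription factor that acts downstream of cytokine receptors (0.942), Vars2 (0.909), the zinc finger gene Zkscan17 (0.881) and Llgl1, a regulator of cell polarity (0.746). With 4 pools in each genotype such values are imprecise, and these are the highest among 172 genes, so nothing is read from their size. Stat5b averaged 12.41 ± 0.15 in mutants and 12.40 ± 0.12 in controls (SD, n = 4 each), and its genotypes overlapped. Within each genotype its pools had the order of Ntn1, except that mutant pools 1 and 4 and control pools 1 and 2 changed places. Over the pools of both genotypes together the order was not that of Ntn1 (Spearman rho 0.286, Pearson's r 0.359). For Llgl1 r was 0.518 among mutants and 0.975 among controls. Its difference was -0.24, and -0.06 without control pools 1 and 2. Without these 2 pools, r over the remaining 6 was 0.0935 for Stat5b, 0.331 for Zkscan17 and 0.592 for Llgl1.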

How the data were processed

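RNA of 8 pools was measured on one-colour arrays. Each probe has 4 deposited columns per the file headers: signal, signal-to-noise score, flag and array-normalized signal. The first is a deposited linear intensity, with a lowest value per array of 22.56 to 59.57. It was taken as background corrected, which no header states and these values do not settle. The deposited table of the whole series equals the array-normalized signal in 264096 of 264096 cells. The deposited score and flag served as filters and to describe Ntn1. The reader software and what the flags mean are not stated here or in the labels.

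Log2 signals were quantile normalized over 33012 probes in R 4.3.3. Probes with a signal-to-noise of at least 3 and a flag under 5000 in at least 3 of 4 pools of a genotype were tested (17594). Genotypes were compared with limma 3.58.1 (lmFit, eBayes, two-sided, Benjamini-Hochberg over all tested probes), a procedure tested on simulated data. The number of arrays limits the precision. Symbols came from RefSeq (GRCm38.p6), 311 probes by accession and 5, Ntn1 among them, by synonym. Positions are left out because no build is named in the files.

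Named were Ntn1, every matched list member, the 4 genes of highest and 2 of lowest r with Ntn1, the 4 of highest within-genotype r and 2 unnamed probes; the brightest probe stood for a gene in the likeness. The gene, lists and settings were chosen with earlier results of these data known. Alternatives changed scaling, values, background, filter, variance model, weights, array date, replicate number or the pools used.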

Additional observations from a re-analysis of the deposited data

Results flagged for a closer look

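In 36 groups of 4 pools checked, 2 values stood far from the rest of their genotype, and chance gives about 5% of groups. Fgf11 in control pool 4 reached 12.57 (log2 signal), while the other controls lay between 11.59 and 11.65. The unnamed probe mCG17323.2 in mutant pool 3 had 14.87, below the other mutants, of which the highest had 15.01. The values of Ntn1 were not among them in either genotype.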

How the results depend on the processing

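The Ntn1 difference was negative under 27 of 27 alternatives, from -1.34 without scaling between arrays to -0.71 without control pools 1 and 2. With 1 pool left out it ran from -1.09 to -0.83. This count is no support, since much of it was fixed in advance. Every mutant pool was below every control pool, so leaving out, averaging or weighting pools could not change the sign. The changes of filter, variance model and block could not change the difference of means. The values of the whole series repeated the array-normalized signal. With array weights, which put control pools 1 and 2 at 0.305 and 0.161, the Ntn1 difference was -0.78. The count of 81 probes was 48 without scaling, 30 without a filter on dim probes, 285 with array weights, 30 in the larger array date alone, 36 with an average of mutant pools 1 and 4 (a number recurs in their array names), 4566 without control pools 3 and 4, and, with 1 pool left out, 38 to 65 (38, 48, 47 and 38 without mutant pools 1 to 4, and 44, 65, 49 and 64 without control pools 1 to 4). Some of these counts are lower by construction, with a smaller number of pools or residual degrees of freedom or with more probes tested; for the others the cause was not tested. With the replicate block the count was 30 and the Ntn1 difference -0.95. Deviations of same-numbered pools correlated at -0.0867, 0.178, 0.00365 and 0.0778, and those of differently numbered pools at -0.166 to 0.111. So few values cannot settle if the numbers pair the pools. Of the list probes 0 passed under 26 alternatives (of which detection in all 8 pools left the dimmer Ccl21b probe untested), and 6 passed without control pools 3 and 4, where control pools 1 and 2 are the only controls: Mapk7 (-0.51), Pcdha3 (1.11), Ccl21a (1.07), the dimmer Ccl21b probe (1.05, with 2 of 4 control pools detected), Notum (0.58) and Hba-a1 (1.56). The sign changed for the brighter Ccl21b probe there (0.08), and for Zkscan17 without control pools 1 and 2 (0.01). The Stat5b difference, 0.01 and near 0, kept its sign under 19 of 27 alternatives and ran from -0.37 without scaling to 0.09. The cause was not tested.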
